A study of Ceratitis capitata with 12 samples.

Results

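Head/thorax (HT) and abdomen (Ab) of adult male medflies (Ceratitis capitata) from the 3 ASG selection lines were compared within each line. The members were the 6 ASG samples of the 12 in the series, 1 HT and 1 Ab for each line number. The lines came from the wild-type Toliman strain and had been kept on a sucrose-based larval diet of 684 kcal/L up to generation 60. Before sampling they were reared for 2 generations on a shared glucose diet, and males were frozen 7 days after eclosion and split into HT and Ab over dry ice. RNA of 17 to 22 body parts was pooled per sample, and polyA-selected mRNA was sequenced. The 3 Starch lines, kept on a starch-based diet of 291 kcal/L and handled in the same way, were used only to ask whether the body part difference of the ASG lines differed from theirs. Each sample is 1 pool of a line, so n = 3 is the number of lines, and HT and Ab of a number come from the same line. The study's methods state that the samples were spread over 3 sequencing lanes in a balanced design. They do not say which samples shared a lane, so lane was not taken into account here.

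In a male fly, head and thorax hold the brain, the compound eyes, the antennae and the flight muscle. The abdomen holds most of the midgut and hindgut, the bulk of the fat body, the testes and the accessory glands. Transcripts of digestive enzymes made in the midgut are therefore usually sought in the abdomen, and those of odorant-binding proteins, which carry odours to receptors in the antennae, in the head. A bulk sample cannot tell apart fewer cells of a type from less RNA in each of them.

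The deposited abundances are whole numbers per RefSeq transcript, and 18550 transcripts were listed in at least 1 ASG sample. They held only 206 distinct sets of 6 sample values, because one abundance was repeated over many transcripts. A set was kept where its 6 values summed to at least 100, which left 123 sets holding 11860 transcripts of 6018 matched genes. The median kept set was held by 26 transcripts and the most common by 834. The feature compared below is the set, counted once, and it is called by its first gene in the order of the Ccap_2.1 assembly in a RefSeq table of genes. Its value is not a measurement of any gene in it alone. Numbers of genes given below count matched genes only, and the transcripts of a set can include some that matched no gene.

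The sets followed the order of the genes. Of 5776 pairs of neighbouring kept genes within a run of ascending start positions in that table, 5746 (99.5%) held the same set. Across the end of such a run, where the start positions began again from a low value, 5 of 241 pairs (2.07%) did. Of the 205 runs with at least 2 kept genes, 177 (86.3%) held a single set. None of the kept genes held more than 1 set. The sources used here do not say what such a shared abundance counts.

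Each set counted once, the kept abundances summed to 51802, 58671 and 61202 in HT of lines 1, 2 and 3, and to 45544, 55504 and 53363 in Ab. The sum was thus higher in HT than in Ab of each line, and its part in the results was tested only by the other scalings given below. These sums differ from sequencing depth, and intervals given below cover counting error only, if the values count reads. Levels were not divided by length, so they are compared within a set only. In all lists of values, lines 1 to 3 are given in that order. Values, means, SDs, folds between means and differences within lines are unscaled, while the main edgeR fit was scaled between samples. Orders of the lines and spreads between them were therefore not corrected for the sums.

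The body parts of the ASG lines differed in 51 of the 123 sets (41.5%) at an adjusted p under 0.05 by edgeR's quasi-likelihood test with the line as block. Ab was higher in 23 sets (18.7%), which held 1612 transcripts of 790 genes, and HT was higher in 28 sets (22.8%), which held 2964 transcripts of 1531 genes. In each of the 51, all 3 lines differed the same way in the unscaled values. The changes towards HT included more steep ones: 14 of its 28 sets exceeded 1 on the log2 scale and 10 exceeded 2, against 8 and 3 of the 23 sets higher in Ab. The median absolute log2 fold change was 1.01 for the sets higher in HT and 0.76 for those higher in Ab. The sets higher in HT took between 43.3% and 49.8% of the kept sum in the HT samples and between 19.2% and 25.8% in the Ab samples. Those higher in Ab took between 31.5% and 31.8% in Ab and between 14.7% and 15.2% in HT. The count rested on the lines used: it was 74 without line 1, 32 without line 2 and 21 without line 3, where 5 were higher in Ab and 16 in HT. Library sums without the TMM factors (edgeR's trimmed mean scaling) moved the split to 32 higher in Ab and 19 in HT, and limma after quantile normalisation to 31 and 17.

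**Figure D1:**
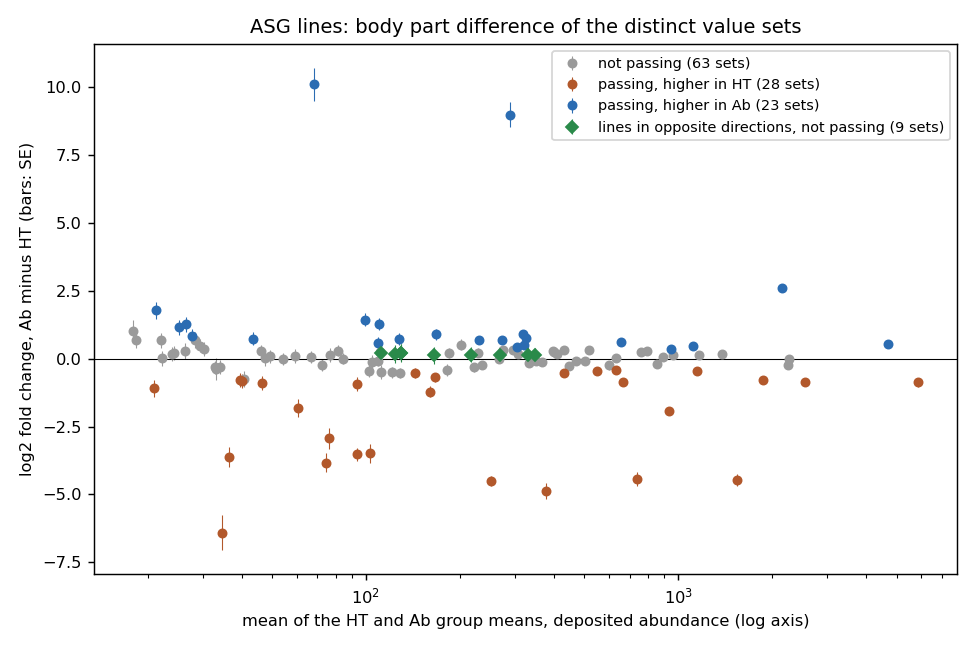
Log2 fold change of Ab over HT in the ASG lines (vertical axis, bars are the standard error of the edgeR fit, n = 3 lines) against the mean deposited abundance of the 2 body parts on a log axis, 1 point for each of the 123 sets. The 28 passing sets higher in HT reach down to -6.41 and the 23 higher in Ab reach above 8, while the 72 that did not pass, 9 of them with lines in opposite directions, lie within 1.04 of 0; the uppermost point has no HT abundance and its fitted value depends on the prior count.

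Against the spread between lines, 43 sets (35%) had no overlap between the 3 HT and the 3 Ab unscaled values, 25 with HT higher (20.3%) and 18 with Ab higher (14.6%). Of the passing sets, 22 of the 28 higher in HT and 14 of the 23 higher in Ab did not overlap. The study calls DE above 1 on a log2 offset fold change with maximal confidence intervals, taken here as the nearest bounds of the 2 ranges after 20 is added to each value. By that rule 14 sets (11.4%) were DE, 11 higher in HT (8.94%) and 3 higher in Ab (2.44%). These held 2135 and 150 transcripts. The rule was applied here to unscaled values. After quantile normalisation 10 sets were DE with HT higher and 4 with Ab higher. The median absolute difference of the group means over all 123 sets was 0.42 on the log2 offset scale, and 18 sets differed by more than 2-fold on it.

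Sets in which HT exceeded Ab were led by a group with very little abundance in Ab. The steepest was the set of LOC101460594, held by 5 transcripts, of which 2 matched no gene and the others this one. It had values of 36, 78 and 92 in HT and of 2, 0 and 0 in Ab, so that Ab was near the detection limit in each line. Over the 3 lines the HT total was 103-fold the Ab total (95% exact interval 28.2 to 856, counts pooled over lines), and the set passed with an adjusted p of 0.000119 (edgeR). The Ab level rests on 2 counts in 1 sample.

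The set of LOC101461731 to LOC101460915 holds 353 transcripts, of which 83 matched no gene and the others matched 198 genes, Fst2 among them. Its abundance was 760, 796 and 628 in HT and 11, 37 and 28 in Ab. All HT samples thus stood far above the Ab samples, with group means of 728 ± 88.5 and 25.3 ± 13.2 (SD, n = 3) and a log2 fold change of -4.88 (SE 0.30, adjusted p = 4.8e-06, edgeR). Among its genes are an odorant-binding protein of the 19d-like kind (LOC101448620), pancreatic lipase-related protein 2 (LOC101452111), of a family that includes triglyceride lipases, a glucose dehydrogenase (LOC105664851) and protein vreteno (LOC101460373), which in Drosophila acts in the germline. The other 2 named products are angiopoietin-4-like and cell wall protein DAN4. Which of the 198 genes or unmatched transcripts gave the abundance cannot be told from one shared value.

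The most widely shared set, LOC101460248 to LOC101455731 with 834 transcripts of 443 genes, had 3546, 2319 and 2971 in HT and 130, 168 and 103 in Ab. Again no line came near an overlap, and the HT mean was 22.0-fold the Ab mean (log2 fold change -4.47, SE 0.21, adjusted p = 2.3e-06, edgeR). It holds pupal cuticle protein Edg-78E (LOC101449446), a structural protein of the exoskeleton, and a putative serine protease (LOC101462043). The set of LOC101449099, a gene named as derived from a tigger transposable element, has 180 transcripts and had 1268, 1647 and 1325 in HT against 59, 49 and 89 in Ab. This was a fold of 21.5 between the means. The set of LOC101457420 with 20 transcripts had 403, 468 and 580 in HT against 21, 18 and 24 in Ab, 23.0-fold apart.

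A second group of 5 sets was lower in level and also separated in every line. The means of these sets in HT lay between 67.7 and 189.7 and in Ab between 5.33 and 17.3. For example, the LOC101462917 set (187 transcripts) had 113, 143 and 161 in HT and 13, 5 and 11 in Ab, 14.4-fold apart. The LOC101454177 set (17 transcripts) was the one of the 5 whose highest HT value was in line 1, with 275, 121 and 173 in HT and 12, 12 and 25 in Ab. Its fellows were those of LOC101455677, LOC101452992 and LOC101448542, with 196, 265 and 10 transcripts and log2 fold changes of -3.61, -3.53 and -2.93.

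The set of LOC101457166 with 68 transcripts of 21 genes includes nidogen-2 (LOC101455706), a basement membrane protein. It combined a high level in both body parts with a 3.81-fold difference: 1192, 1405 and 1838 in HT and 318, 389 and 456 in Ab (log2 fold change -1.93, SE 0.11, adjusted p = 4.7e-06, edgeR). Before scaling, both body parts had their lowest value in line 1 and their highest in line 3. Line 1 also had the lowest kept sum in both body parts (51802 in HT and 45544 in Ab). The LOC101455075 set (91 transcripts) lay just below the bound of the range rule, at -0.80, with 69, 90 and 126 in HT and 31, 31 and 17 in Ab. Just past that bound was the LOC101455677 set at -1.27.

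**Figure D2:**
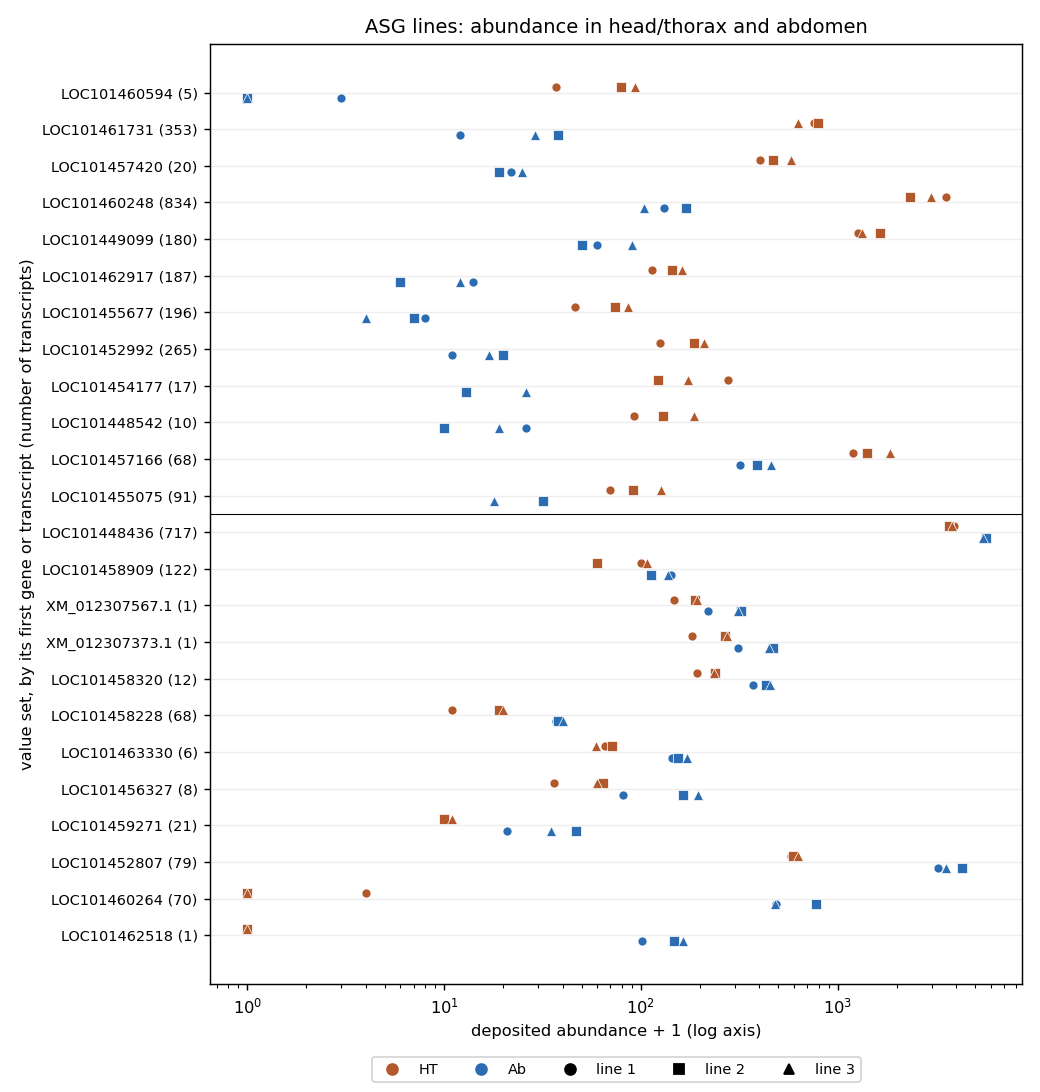
Deposited abundance plus 1 (log axis) in each of the 6 ASG samples for the 12 passing sets with the steepest change towards HT (above the line) and the 12 towards Ab (below it) among sets without overlap. Colours mark body part and shapes the line; rows give the first gene, or the transcript where no gene matched, with the number of transcripts, and the gap between colours is wide in the upper rows and in the lowest 3 but narrow between them.

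The steps towards HT of the following sets were smaller. The largest kept sum was that of the LOC101457116 set (171 transcripts of 86 genes), with 7992, 7654 and 7076 in HT and 4122, 3926 and 4395 in Ab. All HT samples lay above all Ab samples, and the means differed 1.83-fold (log2 fold change -0.88, SE 0.16, adjusted p = 0.00297, edgeR). The set of LOC101455930 is the abundance of 1 matched gene with 6 transcripts, and had 2335, 2216 and 2476 in HT and 1635, 1175 and 1353 in Ab. It was 1.69-fold higher in HT (adjusted p = 0.00278, edgeR, and 0.0878 without the line block). The set of LOC101461900 has 5 transcripts, 1 of them matched to no gene, and had 648, 760 and 773 in HT and 510, 572 and 542 in Ab, 1.34-fold apart. Its adjusted p of 0.0214 (edgeR) rose to 0.201 without line 3, 0.0797 without line 2 and 0.0544 without the line block, and to 0.0556 with library sums without TMM and 0.106 in limma after quantile normalisation. Transcript XM_004524373.1, which matched no gene, held a set of its own with 171, 206 and 302 in HT and 97, 78 and 112 in Ab.

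In the other direction, 2 sets were nearly or wholly absent from HT. The set of LOC101462518, held by its transcript XM_004524803.1 alone, had 0 in all HT samples and 100, 147 and 162 in Ab. Against a floor of 3 counts per library, Ab was at least 45.4-fold higher. The set of LOC101460264 to LOC101460087, 70 transcripts of 41 genes, had 3, 0 and 0 in HT and 482, 773 and 481 in Ab. With counts pooled over the 3 lines this was a ratio of 579 (95% exact interval 198 to 2809). The floor above was set per library, so these folds are not ranked against each other. Both passed, with adjusted p of 6.1e-05 and 2.3e-06 (edgeR).

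The set of LOC101452807 to LOC101452088, 79 transcripts of 31 genes, was the third past the range rule with Ab higher. It had 579, 594 and 624 in HT and 3216, 4292 and 3554 in Ab. HT thus varied little between lines before scaling, while Ab was 6.16-fold higher in the mean (log2 fold change 2.61, SE 0.13, adjusted p = 2.3e-06, edgeR). A pair of chymotrypsin-1-like genes (LOC101453897 and LOC101454073) are among its members. Chymotrypsins are serine proteases that insects secrete into the midgut to digest protein.

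The remaining sets higher in Ab differed by less. The LOC101459271 set (21 transcripts) had 9, 9 and 10 in HT and 20, 46 and 34 in Ab. Next, the LOC101463330 set (6 transcripts of 3 genes) had 65, 70 and 58 in HT and 143, 154 and 170 in Ab, and with 0.86 it was the nearest below the bound of the range rule on this side. The LOC101456327 set, with 8 transcripts of which 5 matched no gene, had 35, 63 and 59 in HT and 80, 162 and 195 in Ab. These 3 sets showed Ab over HT in every line, by between 2.42-fold and 3.57-fold in the means. Line 1 had the lowest unscaled Ab value in each, and it also had the lowest kept sum in Ab (45544). The LOC101458228 set had 10, 18 and 19 in HT and 36, 37 and 39 in Ab, and the LOC101458320 set had 191, 238 and 234 in HT and 370, 429 and 452 in Ab. Without line 3 the calls of the LOC101459271, LOC101463330, LOC101458228 and LOC101458320 sets were lost, with adjusted p of 0.137, 0.0563, 0.161 and 0.078 (edgeR). That of the LOC101458228 set was also lost in DESeq2 (0.0884).

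Before scaling, the set with the narrowest spread at a high level was that of LOC101448436 to LOC101453487, 717 transcripts of 354 genes. It had 3883, 3672 and 3813 in HT and 5606, 5633 and 5453 in Ab, with group means of 3789 ± 107 and 5564 ± 97.1 (SD, n = 3). The unscaled difference of 1.47-fold was many times the spread between lines, which need not hold after scaling. In the scaled fit the log2 fold change was 0.55 (SE 0.13, adjusted p = 0.0134, edgeR). The set missed the threshold without the line block (adjusted p = 0.115) and in a fit of all 12 samples (0.0545). Trypsin-7 (LOC101458784), a digestive protease, and the flavoprotein subunit of succinate dehydrogenase (LOC101449669), which works in both the citric acid cycle and the respiratory chain, are among its genes. The set of LOC101458909, which includes chymotrypsin-1 (LOC101458191), had 99, 59 and 106 in HT and 142, 111 and 137 in Ab, close to an overlap. Its adjusted p was 0.0475 (edgeR), and the call was lost without line 2 (0.362), without line 3 (0.201), without the block (0.283), in the fit of all 12 samples (0.177), in DESeq2 (0.142), in limma (0.0627), with equal library sizes (0.0626) and with every transcript as a feature (0.0786).

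Of the kept sets, 9 were held by 1 transcript and 12 had 1 matched gene, although in 8 of the 12 the value was also held by transcripts that matched no gene. Of the 9 single transcripts 5 were higher in Ab and 1 in HT, and of the 12 sets with 1 matched gene 4 were higher in Ab and 3 in HT. In the 4 sets where every transcript matched the 1 gene, 2 were higher in Ab, 1 was higher in HT and the fourth did not pass. LOC101462518 is counted in both. Transcripts XM_012307567.1 and XM_012307373.1, which matched no gene, had 147, 187 and 192 and 181, 268 and 273 in HT, and 218, 323 and 311 and 310, 466 and 448 in Ab. In both, each Ab value lay above each HT value, and both calls were lost without line 3 (adjusted p = 0.188 and 0.127, edgeR). The first was also lost without line 2 (0.0797), and both were lost with every transcript as a feature (0.111 and 0.0754, edgeR). For LOC101462028 the 2 ranges overlapped, with 75, 105 and 104 in HT and 100, 183 and 201 in Ab. Its call (adjusted p = 0.0282, edgeR) was lost without line 2 (0.134) and without line 3 (0.288). It was also lost without the line block (0.0572) and with every transcript as a feature (0.0775). The LOC105664522 set, with 2 of its 3 transcripts unmatched, also overlapped, with 10, 11 and 27 in HT and 32, 25 and 46 in Ab. Its adjusted p of 0.0135 (edgeR) rose to 0.186 without line 3, to 0.0883 without the line block and to 0.136 in DESeq2.

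The pairing by line is what separates some sets. In the LOC101454910 set (39 transcripts) HT had 577, 857 and 1063 and Ab had 730, 1106 and 1344, so that the ranges overlapped widely. Within the lines, however, the log2 offset difference was 0.33, 0.36 and 0.33, and the set passed with a log2 fold change of 0.34 (SE 0.11, adjusted p = 0.0465, edgeR). The LOC101462584 set (301 transcripts) showed the same in the other direction, with 369, 687 and 841 in HT and 274, 464 and 658 in Ab (log2 fold change -0.46, SE 0.13, adjusted p = 0.0282, edgeR). Without the block 31 sets passed, 13 higher in Ab and 18 in HT, and all 31 were among the 51.

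Of the 72 sets that did not pass, 31 nonetheless had all lines on one side. In 41, lines lay on both sides or a line had equal values. The largest fitted difference among the 72, a log2 fold change of 1.04 (SE 0.41, adjusted p = 0.0789, edgeR), belonged to the LOC101462628 set. It had the smallest kept sum, with 9, 19 and 6 in HT and 7, 44 and 23 in Ab, and it passed without line 1 (adjusted p = 1.2e-05). A well-covered set with nearly equal body parts was that of LOC101462214 (63 transcripts), with 2020, 2396 and 2357 in HT and 2255, 2236 and 2312 in Ab (log2 fold change 0.00, SE 0.13). The set of LOC101453257, which holds the cytochrome P450 gene CcCYP9B5, of a family that oxidises foreign compounds, had 742, 1124 and 894 in HT and 937, 1083 and 973 in Ab (log2 fold change 0.13, SE 0.13, adjusted p = 0.483, edgeR). The median standard error over the 123 sets was 0.21 on the log2 scale.

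Among these were 9 sets whose lines went opposite ways, by more than 0.5 on the log2 offset scale below 0 in 1 line and above 0 in another. They were chosen after their values were seen, so the pattern is given as a description. They held 2086 transcripts of 1104 genes, one of them Zw (glucose-6-phosphate dehydrogenase in Drosophila, the entry enzyme of the pentose phosphate pathway), and none of the 9 passed. The largest, of LOC101456100 with 509 transcripts, had 65, 281 and 194 in HT and 37, 527 and 195 in Ab. Another, of LOC101452783 with 500 transcripts, had 95, 354 and 223 in HT and 48, 629 and 264 in Ab. In the Zw set the values were 40, 157 and 111 in HT and 21, 304 and 113 in Ab. Line 1 was lowest in both body parts of these 3 sets, and line 2 was highest.

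The 9 sets moved in near proportion to each other. Their Ab to HT ratio was between 0.505 and 0.569 in line 1, between 1.78 and 2.00 in line 2 and between 0.987 and 1.18 in line 3. Their summed abundance was 588, 2337 and 1595 in HT and 311, 4416 and 1697 in Ab. Line 2 thus had the largest sums in both body parts and line 1 the smallest. In the Starch lines the same sets summed to 2671, 1047 and 871 in HT and to 4697, 4526 and 6716 in Ab, with Ab above HT in each line at ratios of 1.76, 4.32 and 7.71. Without these 9 sets, an alternative chosen after the data were seen, 64 of the remaining 114 passed, 32 in each direction, and all of the 51 were among them.

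**Figure D3:**
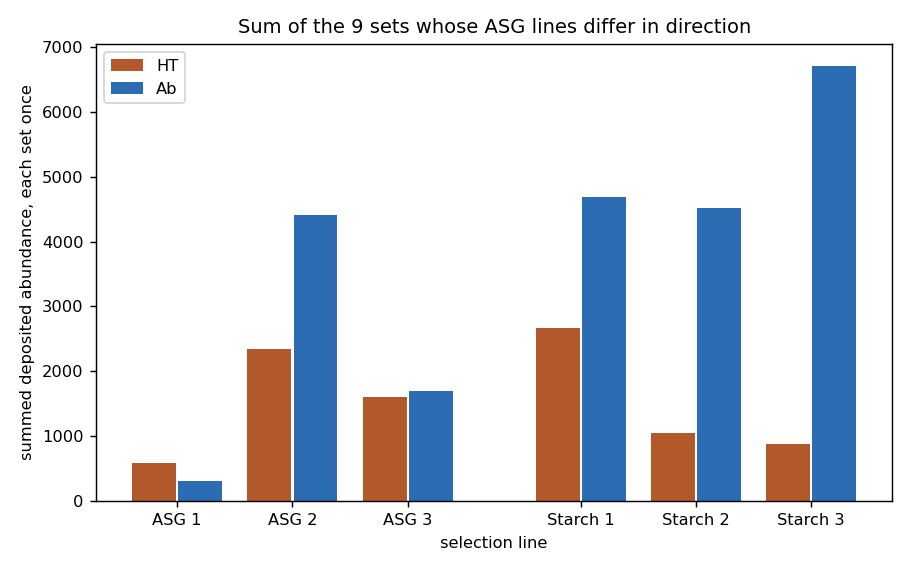
Summed deposited abundance (linear axis from 0) of the 9 sets whose ASG lines went opposite ways, each set counted once, in HT and Ab of the 3 ASG and 3 Starch lines, 1 sample per bar and no error bar. The sum is lower in Ab than in HT in ASG line 1 (311 against 588), higher in ASG line 2 (4416 against 2337), nearly level in ASG line 3, and higher in Ab in all Starch lines.

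**Figure D4:**
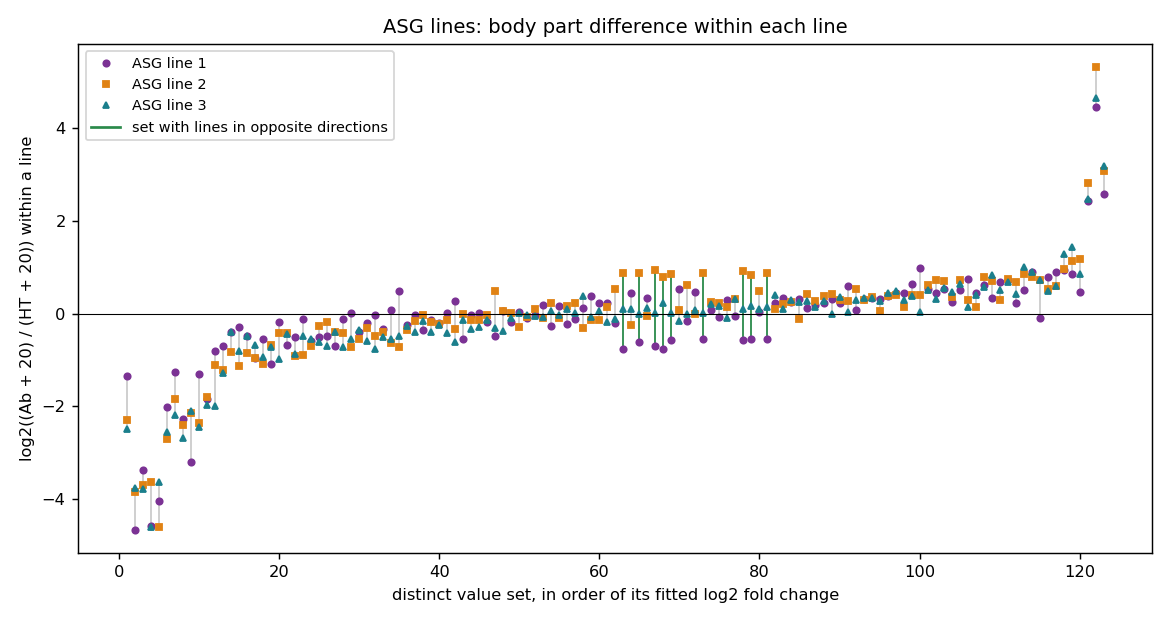
Log2 ratio of Ab plus 20 over HT plus 20 within each ASG line, for the 123 sets in order of their fitted log2 fold change; vertical bars join the 3 lines of a set, and green bars mark the 9 sets whose lines went opposite ways. At both ends of the order the lines of a set lie on the same side of 0, and the 9 marked sets stand out in the middle, with line 1 below 0 and line 2 above.

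Genes of the lists for body part markers were found by words in product names, which the supplementary tables of the study give for 31 genes in kept sets, and for CcCYP9B5 by its symbol. The study had chosen the 31 genes on these samples for differences between diets, so the lists are small and not independent of them. Of the list of digestive and other proteases (trypsins, chymotrypsins, serine proteases, carboxypeptidases), 8 genes lay in 6 kept sets, of which 3 were higher in Ab and 1 in HT. The 3 are the chymotrypsin and trypsin sets above, and the one higher in HT is the 443-gene set with the putative serine protease. The other 2 did not pass: the LOC101455653 set, with a chymotrypsin-1-like gene, had 54, 79 and 85 in HT and 72, 112 and 85 in Ab, and that of the SP24D-like serine proteases had 18, 20 and 27 in HT and 44, 29 and 32 in Ab.

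Each other list with a named gene in a kept set had only 1. The odorant-binding protein, of a head and thorax list, and the lipase, of the fat body list for the abdomen, lay in the same set. That set was higher in HT, so its 1 shared value went with the first list and against the second. The cuticle gene lay in a set higher in HT, the succinate dehydrogenase gene in a set higher in Ab, and the detoxification gene in a set that did not pass. Next to the 18.7% and 22.8% of all sets that passed in each direction, nothing particular to the protease list is read from its 6 sets. No product name held a word of the lists for opsins, muscle, nervous system, testis, accessory gland, carbohydrate enzymes or ribosome, and the labelled body parts were therefore not checked against those markers. A gene outside these words, inhibitory POU protein (LOC101462169), a transcription factor of neurons in Drosophila, lay in a set below the minimum sum with 2, 7 and 15 in HT and 0, 0 and 1 in Ab. It was singled out after its values were seen.

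The body part difference was then set beside that of the Starch lines, which share no sample with the ASG lines. In Starch 64 of 125 sets (51.2%) passed the same test, 29 higher in Ab (23.2%) and 35 higher in HT (28%). Of the 28 ASG sets higher in HT, 26 also passed in Starch with HT higher and none with Ab higher. Of the 22 ASG sets higher in Ab that could be tested in Starch, 15 passed with Ab higher and none with HT higher. The 2 ASG calls whose fitted sign was the other way in Starch were the LOC101454910 set (0.34 in ASG and -0.12 in Starch) and the LOC105665555 set (-0.78 and 0.13). The latter had 36, 52 and 61 in HT and 15, 34 and 40 in Ab of the ASG lines, and 43, 32 and 13 in HT and 34, 30 and 45 in Ab of the Starch lines.

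The difference itself was tested as an interaction of body part and diet over all 12 samples with the 6 lines as blocks. None of the 145 sets tested passed (0%) in edgeR, DESeq2 or limma, and 23 had an unadjusted p under 0.05 in edgeR, 16 in DESeq2 and 20 in limma. The lowest adjusted p was 0.157. Of the 23, 10 had a larger Ab minus HT value in ASG and 13 a smaller one, and 9 of those 13 were the sets whose ASG lines went opposite ways, with interaction estimates between -1.54 and -1.36 on the log2 scale. These 9 were the calls made when Starch line 1 was left out, with adjusted p between 0.0152 and 0.0311 (edgeR). The lowest unadjusted p, 0.00173, belonged to LOC101449614, a single gene with 10 transcripts, whose log2 fold change was 0.28 in ASG (adjusted p = 0.125, edgeR) and -0.37 in Starch (adjusted p = 0.0408).

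The 2 steepest sets towards Ab were also at or near 0 in HT of the Starch lines. LOC101462518 was at 0 in all Starch HT samples too and had 57, 85 and 71 in Starch Ab, and the LOC101460264 set had 2, 1 and 0 in Starch HT and 696, 661 and 807 in Starch Ab. LOC105664522 had a log2 fold change of 1.15 (SE 0.28) in ASG and of 2.01 in Starch, a difference that did not pass (unadjusted p = 0.118, edgeR interaction). Over the 145 sets of the interaction test, the median absolute log2 offset difference was 0.36, 0.40 and 0.37 in ASG lines 1 to 3 and 0.36, 0.50 and 0.63 in the Starch lines. The means of 0.378 ± 0.0198 and 0.494 ± 0.138 (SD, n = 3) were not separated by an exact two-sided permutation test (p = 0.4), which could not go below 0.1 with 3 lines against 3.

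**Figure D5:**
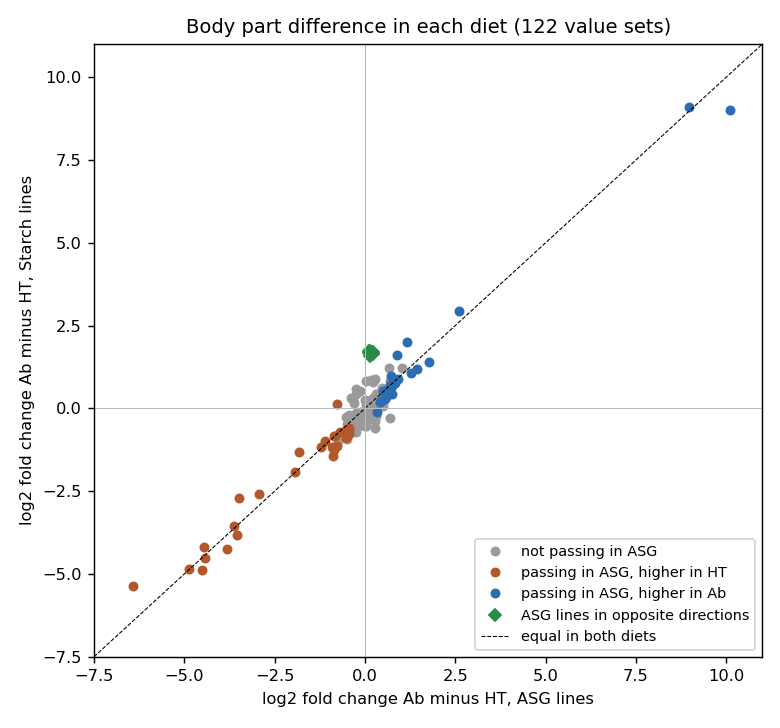
Log2 fold change of Ab over HT in the ASG lines (horizontal axis) and in the Starch lines (vertical axis) from separate edgeR fits, for the 122 sets tested in both; the dashed line marks equal values. Sets passing in ASG lie within 1.08 of the dashed line on the log2 scale, and the 9 sets whose ASG lines went opposite ways (green) sit near 0 in ASG and at 1.57 to 1.73 in Starch.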

How the data were processed

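Whole-number counts per RefSeq transcript of 12 samples were deposited by the authors. According to the study's methods, the authors discarded reads holding an N and reads from rRNA, drew an equal number of reads from every library, aligned them with PaTMaN, of which no version is given, allowing 1 mismatch and no gaps, added up the reads incident to each transcript and normalised by quantiles. Which of these steps the deposited values include is not stated in the sources used here, and their distributions differ between samples, so they were taken as counts. Diet, body part and line number were taken from the sample labels.

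The 6 ASG samples were joined on the transcript, a transcript missing from a sample was set to 0, and each distinct set of 6 values with a sum of at least 100 was counted once. Transcripts were matched without version to a RefSeq table of genes on Ccap_2.1, used for symbols and gene order only: 14454 transcripts matched 9616 genes, 1171 of them in the same version. Product names came from the study's supplementary tables.

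Sets were tested with edgeR 4.0.16 (TMM, quasi-likelihood, line as block) and Benjamini-Hochberg adjustment over the 123 sets, and the range rule, a reading of the maximal intervals in the methods, used an offset of 20. The interaction used 145 sets of 12 values. Starch sets were tested in the same way. DESeq2 1.42.0 and limma 3.58.1 (log2 of the value plus 20) were alternatives, beside other scalings, offsets, minimum sums and fits that each left 1 line out. The software was R 4.3.3 and Python 3.11.15 (SciPy 1.17.1, pandas 2.3.3, matplotlib 3.10.9, NumPy 2.4.6). On simulated data for the ASG comparison, with 30 of the 123 sets changed, edgeR recovered 26 at a fold of 2 and 30 at a fold of 4, with 1 false call at each. The simulation gave all sets the same dispersion, changed equal numbers in each direction and shared line effects between body parts. It modelled no body part difference that varied between lines, so its recovery and false calls need not hold for these data. Lines pair the body parts by design, and deviations from group means of HT and Ab correlated at 0.74, 0.78 and 0.50 in lines 1 to 3, and at 0.42, 0.54 and 0.50 without the sets whose lines went opposite ways. The sets described by value were the 12 passing sets without overlap with the largest change in each direction, passing sets of 1 matched gene, and the sets with the most transcripts and the largest and smallest sums. Further sets were chosen after their values were seen. The members and lists were chosen with earlier results of these data known.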

Additional observations from a re-analysis of the deposited data

How the results depend on the processing

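No ASG call changed sign under any alternative run. Of the 51 sets that passed, 31 remained without the replicate block (the line), 25 of the 28 passing at a minimum sum of 1000 were among them, and leaving out 1 line gave between 21 and 74. Counts under the other alternatives lay between 37 (every transcript as a feature) and 64 (no minimum sum), with 39 in DESeq2 and 48 in limma. The range rule gave 14 sets, 7 at a minimum sum of 1000, where 62 sets were tested, between 14 and 16 with 1 line left out, and between 11 and 18 otherwise. The median absolute log2 difference of 0.42 was 0.48 at an offset of 1, 0.33 at an offset of 50, 0.24 with no minimum sum, 0.37 at a minimum sum of 1000 and between 0.33 and 0.44 with 1 line left out. The interaction gave 0 sets under all alternatives except without Starch line 1, so that leaving out 1 line gave between 0 and 9. The median log2 fold change of all sets was 0.10, and it was 0.26 with library sums without TMM and -0.08 without line 2.

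Of the 30 sets chosen by rule, 10 no longer passed without line 3, 4 without line 2 and 6 without the block. The causes of these changes were not tested. Fits without a line also had fewer samples, and those at a higher minimum sum had fewer sets. One shared abundance per run of genes limits every gene named, and small values such as 2 or 3 counts limit the folds of the sets nearly absent from a body part.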
